A study of Mus musculus with 2 samples.

Results

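The genes described are 10 members of the glutathione S-transferase family in whole mouse kidney: Gstp1 and Gstp2 of the pi class, Gsta2 and Gsta4 of the alpha class, Gstm1 and Gstm5 of the mu class, Gstt1 and Gstt2 of the theta class, Gstk1 of the kappa class and the membrane-bound Mgst1. They were taken by symbol, and all 10 were found among the 31058 features of the count tables. The list was chosen by family and by values of these same libraries, above all the CA3 over vehicle ratio of Gstp1, so that ratio is given here as a description.

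Glutathione S-transferases join the tripeptide glutathione to electrophilic compounds, among them drugs, products of lipid peroxidation and reactive metabolites, and the conjugates are exported and trimmed to mercapturates. The alpha, mu, pi and theta enzymes are cytosolic, the kappa enzyme lies in mitochondria and peroxisomes, and Mgst1 sits in the membranes of the endoplasmic reticulum and mitochondria. The proximal tubule takes up, conjugates and clears many such compounds, and alpha class enzymes in urine are used as a sign of proximal tubule injury.

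Cells came from kidneys of female C57Bl/6 mice, 9 weeks of age, with the genotype Pax8.rtTA;TetO.Cre;R26.FUCCI2aR, in which the Pax8 promoter drives the doxycycline-dependent activator in tubule cells and Cre can switch on a fluorescent cell cycle reporter. Both groups carried this genotype and both had rhabdomyolysis, the breakdown of skeletal muscle that injures the tubule through released myoglobin. A single library was made for vehicle and a single one for CA3, a compound known as an inhibitor of the transcriptional coactivator YAP1. The sources used here do not give the number of animals behind each library, the dose of CA3 or the time of collection, and no uninjured library was analysed here.

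The vehicle library held 19592239 unique molecular identifiers (UMIs, each standing for 1 captured RNA molecule) over 1967 barcodes and the CA3 library 17013222 over 1724, and 1767 and 1494 cells were kept, with median depths of 7338 and 7567 UMIs. The libraries shared 1 barcode. Markers of the labelled tissue were present in both libraries, from Lrp2 and Slc34a1 of the proximal tubule to Umod, Slc12a3 and Aqp2 of later segments. Clusters were named from fixed marker lists as proximal tubule-like (1436 and 1163 cells, 10 clusters), thick ascending limb-like (90 and 48), distal convoluted or connecting tubule-like (56 and 53), principal-like (22 and 13), intercalated-like (15 and 18), endothelial-like (49 and 41), T or NK-like (51 and 96), mononuclear phagocyte-like (37 and 42), B-like (5 and 17) and podocyte-like (6 and 3). The names are used below without "-like". A level is the sum of a gene's UMIs over the cells of a class, per 1000000 UMIs of all nuclear-encoded genes (CPM), with a 95% Poisson interval in parentheses. A ratio has the exact conditional binomial interval for a pair of counts. These intervals cover counting error only, and with 1 library per group no difference has a replicate check, so no p-value was computed.

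By GENCODE vM21 gene models on mm10, the members lie in gene clusters of their classes. Gstp1 (chr19:4035407-4037985) and Gstp2 (chr19:4040285-4046023) are neighbours on the minus strand with 2299 bases between them. Gsta4 (chr9:78182774-78209349, plus strand) and Gsta2 (chr9:78331018-78355788, minus strand) share a region of chromosome 9, as Gstm5 (chr3:107895821-107898686, plus strand) and Gstm1 (chr3:108012255-108017973, minus strand) do on chromosome 3. Gstt1 (chr10:75783813-75798584) and Gstt2 (chr10:75831114-75837424) are on the minus strand of chromosome 10. Gstk1 (chr6:42245935-42250447) and Mgst1 (chr6:138140316-138156755) are on the plus strand of chromosome 6, far apart.

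The coding sequences of Gstp1 and Gstp2 were compared first, since a 3' library has to tell these genes apart by the ends of their transcripts. Each coding sequence had 633 bases in GENCODE vM21, and they differed at 12 bases, an identity of 98.1%. Counted from the A of the start codon, 6 of the 12 lie in the first 120 bases, which are shown for both genes with the differing bases in capitals.
Gstp1 coding bases 1 to 120: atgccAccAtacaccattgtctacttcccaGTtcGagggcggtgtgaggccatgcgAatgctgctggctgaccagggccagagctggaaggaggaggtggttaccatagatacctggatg
Gstp2 coding bases 1 to 120: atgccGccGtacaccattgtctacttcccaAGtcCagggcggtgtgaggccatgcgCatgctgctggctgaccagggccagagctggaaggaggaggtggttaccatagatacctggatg
The differences in this window, written as the Gstp1 base, the position and the Gstp2 base, are A6G, A9G, G31A, T32G, G35C and A57C. The other 6 are A268G, T314G, C319A, C321G, C329G and C330A. No base after position 330 differed, and the last 150 coding bases, from base 484 to the stop codon, were the same in both genes and are shown once.
Gstp1 and Gstp2 coding bases 484 to 633: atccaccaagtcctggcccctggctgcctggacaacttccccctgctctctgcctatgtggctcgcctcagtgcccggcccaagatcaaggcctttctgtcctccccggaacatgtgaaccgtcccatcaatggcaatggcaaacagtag

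The 250 bases before the RefSeq start (GRCm38.p6) are shown for both genes. These starts differ from the GENCODE models above, so that the Gstp2 stretch lies inside the Gstp2 model and part of the Gstp1 stretch inside the Gstp1 model. They are shown since both hold the 9 letters TGAGTCAGC, in capitals.
Gstp1, chr19:4037913-4038162, minus strand: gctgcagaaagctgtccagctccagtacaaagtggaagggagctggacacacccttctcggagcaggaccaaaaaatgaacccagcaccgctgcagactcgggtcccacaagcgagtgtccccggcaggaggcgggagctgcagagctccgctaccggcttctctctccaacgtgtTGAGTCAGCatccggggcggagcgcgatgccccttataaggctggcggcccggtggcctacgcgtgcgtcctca
Gstp2, chr19:4042222-4042471, minus strand: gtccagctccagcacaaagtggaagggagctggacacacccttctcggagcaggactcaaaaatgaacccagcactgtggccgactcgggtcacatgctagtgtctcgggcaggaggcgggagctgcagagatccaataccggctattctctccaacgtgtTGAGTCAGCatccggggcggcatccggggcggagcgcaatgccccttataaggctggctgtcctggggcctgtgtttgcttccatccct
The run TGAGTCAGC overlaps 2 searched motifs, TGANNNNGC, the core of the antioxidant response element known to bind Nrf2, and TGAGTCA, the element known to bind AP-1. It ends 65 bases before the start of Gstp1 and 80 bases before that of Gstp2. Searched on both strands over the 250 bases of 1 promoter per gene, TGANNNNGC was found in 5 of the 8 members with an entry (Gstp1, Gstp2, Gstm5, Gstt1 and Mgst1), or 62.5%, against 35.1% of 27025 genes. TGAGTCA was found in Gstp1, Gstp2 and Gstm5, or 37.5% of the 8, against 4.43% of all. Gsta4 and Gstt2 had no entry. These are matches of letters, and no binding was measured.

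Gsta2, which encodes an alpha class enzyme that also reduces lipid hydroperoxides, was a proximal tubule gene in both libraries. Its level there was 1696 CPM (1671 to 1721; 18023 UMIs) in the vehicle library and 1738 CPM (1712 to 1766; 16049 UMIs) in the CA3 library. In the other classes with at least 20 cells per library it lay between 78.8 CPM, in CA3 mononuclear phagocytes, and 352 CPM, in CA3 distal cells, with no overlap with the proximal tubule. After thinning every cell to 2000 UMIs, 85.9% and 88% of vehicle and CA3 proximal tubule cells held a Gsta2 UMI, against 19.6% and 9.38% of T or NK cells. Lymphocytes are not known as a source of Gsta2, and the origin of its UMIs in these cells was not tested. The level was lower still in CA3 intercalated cells, at 1.68% of the proximal tubule level against 9.48% in CA3 T or NK cells.

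Gsta4, the alpha enzyme known for conjugating 4-hydroxynonenal, a lipid peroxidation product, was about as high in the distal convoluted or connecting tubule as in the proximal tubule. The levels were 235 CPM (226 to 245; 2500 UMIs) in the vehicle library and 218 CPM (209 to 228; 2017 UMIs) in the CA3 library in the proximal tubule. In the distal class they were 221 CPM (186 to 260.1) and 239 CPM (196 to 289) in the same order, so the intervals of both classes overlapped in each library. Thick ascending limb cells were lower, at 75.3 CPM (59.6 to 93.8) and 119.8 CPM (92.6 to 152). Principal cells had 103 and 199 CPM and intercalated cells 77.2 and 219 CPM, from 58 and 73 and from 18 and 60 UMIs.

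The mu class members had different outlines. Gstm1, which conjugates a wide range of aromatic electrophiles, was found in several tubule classes and in endothelial cells. Its level was 349.6 CPM (338 to 361; 3715 UMIs) in the vehicle library and 355 CPM (343 to 367; 3278 UMIs) in the CA3 library in the proximal tubule, and 400.1 CPM (363 to 440.3; 420 UMIs) in the vehicle library and 283 CPM (240.5 to 331; 156 UMIs) in the CA3 library in the thick ascending limb. The thick ascending limb was thus above the proximal tubule in the vehicle library and below it in the CA3 library. Endothelial cells had 212 CPM (179 to 249.6) and 117 CPM (81.2 to 164) and T or NK cells 28.7 CPM (12.4 to 56.6) and 41.2 CPM (26.7 to 60.8).

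Gstm5 was highest in the proximal tubule in both libraries, at 372 CPM (360.0 to 383; 3948 UMIs) in the vehicle library and 330.5 CPM (319 to 342; 3051 UMIs) in the CA3 library. The next class, the thick ascending limb, had 94.3 CPM (76.7 to 115) and 123 CPM (95.8 to 156), and the distal class 55.9 CPM (39.2 to 77.4) and 108 CPM (79.8 to 143). In each library the interval of the proximal tubule lay apart from those of all 5 other larger classes. T or NK cells had 21.5 CPM (7.9 to 46.9) and 44.5 CPM (29.3 to 64.8).

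The theta class members, which act on small halogenated and other compounds, lay in different cells. Gstt2 was highest in the proximal tubule, at 365 CPM (354 to 377; 3878 UMIs) in the vehicle library and 433 CPM (419.9 to 447; 3999 UMIs) in the CA3 library, and no other class passed 107 CPM. Gstt1 was lower in the proximal tubule, at 122 CPM (116 to 129) and 119 CPM (112 to 126), than in the distal class, at 199 CPM (166 to 236) and 279 CPM (232 to 333). Principal cells of the collecting duct, only 22 and 13 cells but with median depths of 23460 and 38352 UMIs, had the highest Gstt1 level of the 8 classes shown, at 358 CPM (310.2 to 411; 202 UMIs) in the vehicle library and 399 CPM (337 to 469; 146 UMIs) in the CA3 library. Intercalated cells had 197 CPM (144 to 263) and 223 CPM (170.3 to 286).

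Mgst1, a trimeric membrane enzyme that is both transferase and peroxidase, was highest in principal cells, with the thick ascending limb next. Principal cells had 397 CPM (347 to 452; 224 UMIs) in the vehicle library and 399 CPM (337 to 469; 146 UMIs) in the CA3 library. Thick ascending limb cells had 288 CPM (256 to 322) and 239.6 CPM (200.5 to 284), the distal class 196 CPM (163 to 233) and 221 CPM (179 to 269) and the proximal tubule 204 CPM (195 to 213) and 184 CPM (175 to 193). Intercalated cells, the other collecting duct class, had 133 CPM (90.3 to 189) and 175 CPM (129 to 232), at or below the proximal tubule. T or NK cells had 10.8 CPM (2.22 to 31.5) and 9.89 CPM (3.63 to 21.5).

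Gstk1, the kappa enzyme, did not pass 65.6 CPM in any of the 8 classes. It had 63.6 CPM (58.9 to 68.6) and 56.5 CPM (51.8 to 61.6) in the proximal tubule and 63.7 CPM (45.7 to 86.4) and 65.4 CPM (43.8 to 93.9) in the distal class, which overlapped in both libraries, and 10.8 CPM (2.22 to 31.5) and 8.24 CPM (2.68 to 19.2) in T or NK cells, from 3 and 5 UMIs.

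Gstp1, the pi enzyme known to bind and restrain the stress kinase JNK besides its conjugating role, was detected in each of the 8 classes in both libraries. Its vehicle level ran from 6.21 CPM in mononuclear phagocytes (2 UMIs) to 30.5 CPM in the proximal tubule among the 6 larger classes. In the CA3 library it ran from 23.2 CPM in mononuclear phagocytes to 95.9 CPM in the proximal tubule. Gstp2 was nearly absent, with 4 and 15 UMIs in the proximal tubule and 21 UMIs over all kept cells.

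**Figure D1:**
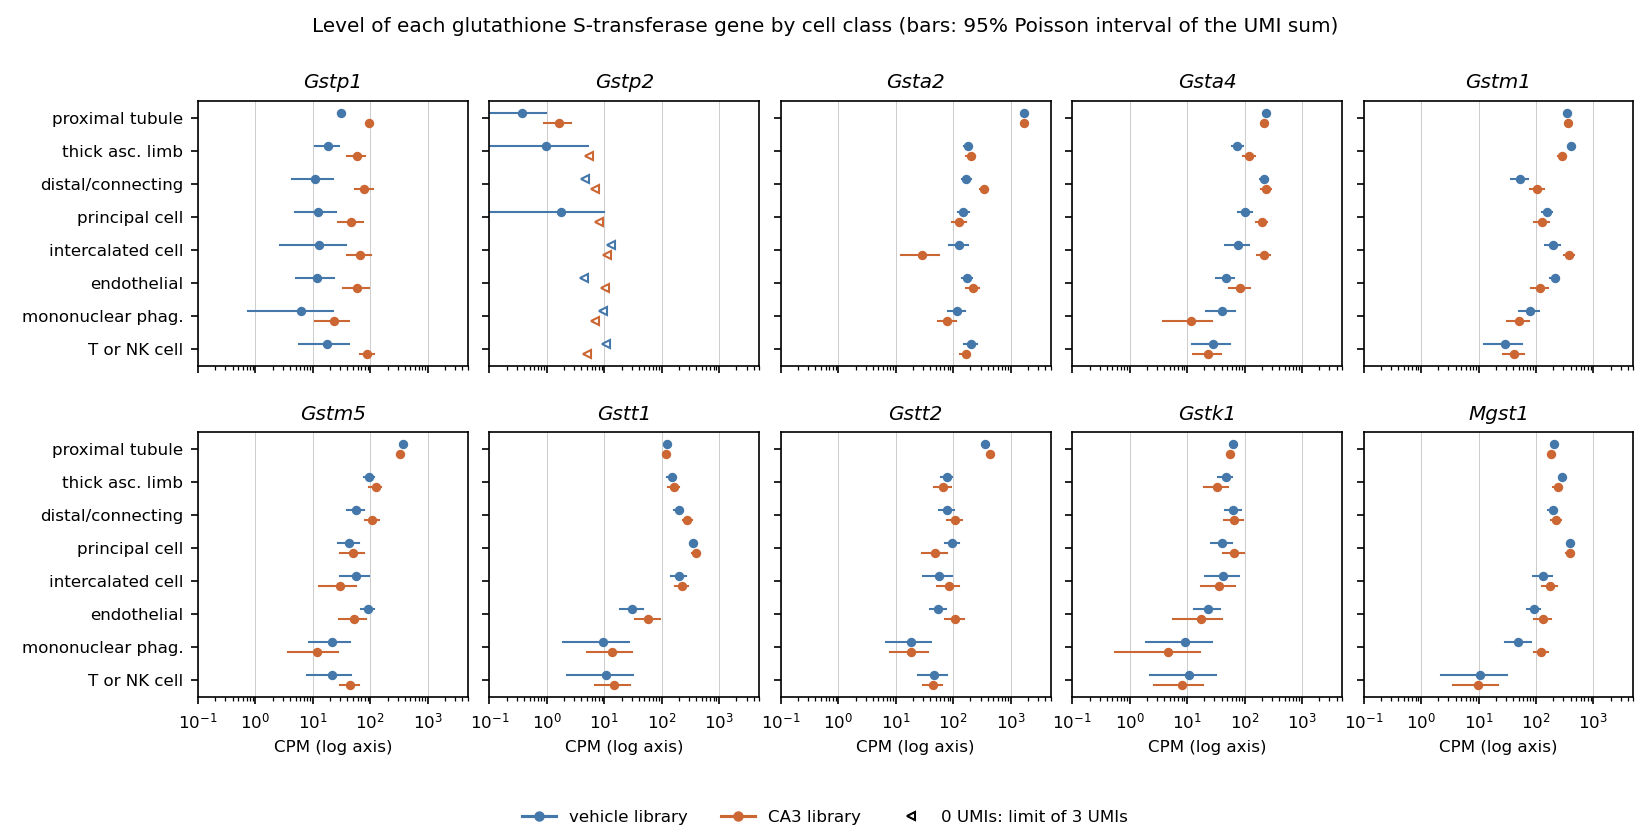
Level of each of the 10 genes (CPM, log axis) in 8 cell classes, as points for the vehicle and CA3 libraries with 95% Poisson intervals of the UMI sums. Gsta2, Gstm5 and Gstt2 stand highest in the proximal tubule, Gstt1 and Mgst1 in principal cells, and the Gstp1 points of the CA3 library lie to the right of those of the vehicle library in all 8 classes.

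Of the 9 members with at least 200 UMIs in the 6 larger classes, 4 (Gstp1, Gsta2, Gstm5 and Gstt2) were highest in the proximal tubule in both libraries, against a background of 15.2% of 9498 genes. Gstp2 was below that count. The place of Gstp1 rests on CPM values within counting error. It had 92.9% (69.2 to 122%) of its proximal tubule level in CA3 T or NK cells and 82.3% (56.9 to 115%) in the CA3 distal class. In vehicle T or NK cells it had 58.9% (19 to 139%). Leaving out the 3 cells of each class and library with most UMIs of a gene made the number of members highest in the proximal tubule 7. Those 3 cells are a larger part of the small classes than of the proximal tubule, so nothing is read from this rise.

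Each member's level in T or NK cells was set against its proximal tubule level. There Gsta2 was at 12.1% (9.13 to 15.6%) and 9.48% (7.71 to 11.5%) of its proximal tubule level in the vehicle and CA3 libraries. The values were 12.2% and 10.6% for Gsta4, 8.21% and 11.6% for Gstm1, 5.8% and 13.5% for Gstm5, 8.8% and 12.5% for Gstt1, 12.8% and 10.3% for Gstt2, 16.9% and 14.6% for Gstk1 and 5.29% and 5.39% for Mgst1. Gstp1 stood apart from these, at 58.9% (19 to 139%) and 92.9% (69.2 to 122%). In the CA3 library the Gstp1 interval lay above those of Gsta2, Gsta4, Gstm1, Gstm5, Gstt1, Gstt2, Gstk1 and Mgst1, while in the vehicle library its 5 UMIs gave an interval that overlapped several of them.

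Within the proximal tubule, clusters were placed by segment markers. The early segment, with Slc5a2, had 489 and 410 cells, the middle one, with Slc22a6, 595 and 482 cells, and the late one, with Slc7a12 and Slc22a13, 41 and 15 cells. Gstm1 was graded along the segments. In the vehicle library it went from 179.9 CPM in early to 409 CPM in middle and 882 CPM in late cells, and in the CA3 library from 185 to 429 and 1006 CPM. The late over early ratio of Gstm1 was 4.9 (4.26 to 5.63) in the vehicle library and 5.44 (4.45 to 6.61) in the CA3 library. Gstm5 went the same way with a smaller span, at 2.22 (1.88 to 2.61) and 2.81 (2.18 to 3.57).

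Gsta2 was lower in late cells. Its level was 1273 CPM (1237 to 1308) and 1321 CPM (1284 to 1359) in early, 1705 CPM (1667 to 1744) and 1741 CPM (1700.1 to 1784) in middle and 839 CPM (743 to 944) and 659.9 CPM (523 to 821) in late cells, and the late over early ratio was 0.659 (0.582 to 0.745) in the vehicle library and 0.4995 (0.395 to 0.623) in the CA3 library. Gstt1 was lower still, at 0.457 (0.248 to 0.777) and 0.23 (0.0472 to 0.677), from 14 and 3 UMIs in late cells. Gsta4 had a late over early ratio of 0.694 (0.484 to 0.966) and 0.508 (0.218 to 1.01), Gstt2 of 1.3 (1.07 to 1.56) and 1.4 (1.07 to 1.81) and Mgst1 of 1.05 (0.748 to 1.44) and 0.651 (0.296 to 1.25).

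Counted at 1.5 times in both libraries, 3 of the 9 members measured were higher in late than in early cells (Gstp1, Gstm1 and Gstm5), against a background of 8.4%, and 2 were lower (Gsta2 and Gstt1), against 29.3%. The Gstp1 ratio rested on 9 and 11 UMIs in late cells and its intervals included 1, at 1.82 (0.793 to 3.69) and 1.61 (0.79 to 2.94). Without the 3 cells with most Gstp1 UMIs in each segment and library it was 0.94 in the vehicle and 0.852 in the CA3 library. This takes more from the 41 and 15 late cells than from the 489 and 410 early ones. The fall therefore cannot say whether a few cells carry the late level. The median over all genes was 0.799 and 0.703, so a typical gene was also lower in late cells.

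**Figure D2:**
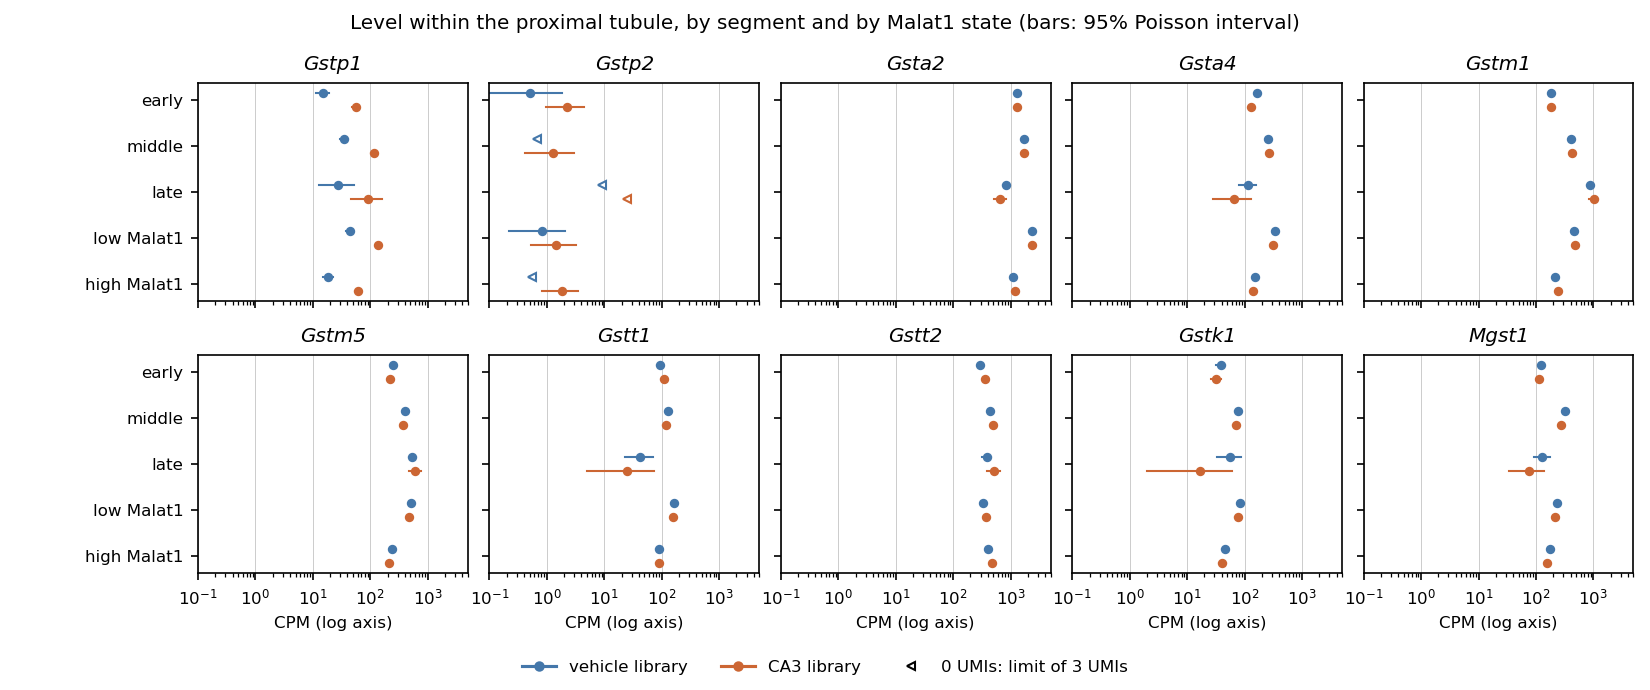
Level of each of the 10 genes (CPM, log axis) in early, middle and late proximal tubule cells and in low and high Malat1 cells, as points for each library with 95% Poisson intervals. Gstm1 is graded from 179.9 and 185 CPM in early to 882 and 1006 CPM in late cells, and Gsta2 is lowest in late cells, at 839 and 659.9 CPM.

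Proximal tubule cells also fell into states of low and high Malat1, a nuclear RNA. Low Malat1 cells (884 and 733) had 1849 and 1770 CPM of Malat1, median depths of 5770 and 6024 UMIs and median mitochondrial shares of 22.0% and 24.1%. High Malat1 cells (511 and 415) had 159950 and 153107 CPM, 11120 and 12664 UMIs and 11.9% and 12.5%. The states hold different mixes of segments, so the segments were compared within each state and the states within each segment.

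Within both states and both libraries, 4 of 9 members were higher in middle than in early cells by 1.5 times: Gstp1, Gstm1, Gstk1 and Mgst1, against a background of 3.27%. None was lower, against 2.69%. Mgst1 had ratios of 2.64 (2.23 to 3.13) and 3.29 (2.69 to 4.05) among low Malat1 cells and 2.35 (2.05 to 2.71) and 1.85 (1.6 to 2.15) among high Malat1 cells, in the vehicle and CA3 libraries. For Gstm1 they were 1.85 (1.63 to 2.1) and 2.05 (1.79 to 2.35) and 2.34 (2.07 to 2.65) and 2.3 (2.04 to 2.6), for Gstk1 2.17 (1.59 to 2.99) and 2.17 (1.54 to 3.11) and 1.67 (1.28 to 2.18) and 2.04 (1.52 to 2.77), and for Gstp1 1.94 (1.24 to 3.11) and 1.76 (1.38 to 2.25) and 2.28 (1.48 to 3.59) and 1.98 (1.56 to 2.53). The levels of Mgst1 were 122 CPM (111 to 133) and 114 CPM (103 to 126) in early, 319 CPM (302 to 336) and 277 CPM (261 to 294) in middle and 128 CPM (92.4 to 173) and 74.2 CPM (33.9 to 141) in late cells, so this gene peaked in the middle segment in both libraries.

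Between the states, 6 of 9 members were higher in low Malat1 cells by 1.5 times in both segments and both libraries (Gstp1, Gsta2, Gsta4, Gstm1, Gstm5 and Gstt1), against a background of 8.22%, and none was lower, against 19.6%. In early cells the low over high ratio was 1.95 (1.84 to 2.06) and 1.93 (1.82 to 2.05) for Gsta2, 2.07 (1.82 to 2.36) and 2.15 (1.87 to 2.49) for Gstm5 and 2.12 (1.22 to 3.66) and 2.3 (1.73 to 3.06) for Gstp1. Gstt2 went the other way in all 4 comparisons, at 0.789 (0.687 to 0.904) and 0.775 (0.679 to 0.883) in early and 0.752 (0.684 to 0.827) and 0.677 (0.613 to 0.746) in middle cells. The high Malat1 cells pooled unlike clusters. Clusters 10 (middle) and 15 (early), with Cyr61 and Fosb among their leading genes, had 545 and 699 and 396 and 548 CPM of Gstt2. The other clusters, 9 (middle) and 1 (early), had 399 and 388 and 274 and 346 CPM. Low Malat1 cells had 367 and 389 CPM in the middle and 251 and 301 CPM in the early segment. The part of clusters 10 and 15 was not tested. All these levels are shares of the RNA left after mitochondrial genes are set aside, and Malat1 itself took up part of that total in high Malat1 cells. With all genes in the total, 3 members were counted as higher. The part of RNA content in these ratios was not tested.

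The clusters left without a segment name held high Gsta2 levels. Cluster 8, led by Akr1c21 and Ttc36, had 2741 and 2787 CPM of Gsta2 and 62.7 and 136 CPM of Gstp1 in the vehicle and CA3 libraries. Its Gstp1 level was the highest of the 10 clusters in the vehicle library. Cluster 3, led by Npl, Gatm and Ass1, had 2571 and 2623 CPM of Gsta2 and the lowest Mgst1 of the 10 clusters, at 82.4 and 47.4 CPM. Cluster 1, an early cluster with high Malat1, had the lowest Gstp1 in both libraries, at 8.92 and 35.3 CPM, and the highest CA3 level was in cluster 6, a middle cluster with low Malat1, at 183 CPM.

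CA3 against vehicle was then compared class by class. In the proximal tubule Gstp1 was higher in the CA3 library, with 30.5 CPM (27.3 to 34; 324 UMIs) in the vehicle library and 95.9 CPM (89.7 to 102; 885 UMIs) in the CA3 library, a ratio of 3.14 (2.77 to 3.58). The share of proximal tubule cells with a Gstp1 UMI was 18.7% (16.7 to 20.8%; 268 of 1436 cells) in the vehicle library and 45.9% (43 to 48.8%; 534 of 1163 cells) in the CA3 library. Thinned to 2000 UMIs per cell the shares were 5.08% and 16%, against 1.96% and 11.5% in T or NK cells. The 3 cells with most Gstp1 held 3.09% and 3.28% of its UMIs in the class, so the count was spread over many cells.

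The members other than Gstp1 and Gstp2 lay between 0.889 and 1.19 in the proximal tubule, and Gstp2, with few UMIs, is described below. Gstt2 was at 1.19 (1.14 to 1.24), Gsta2 at 1.02 (1.003 to 1.05), Gstm1 at 1.02 (0.969 to 1.06) and Gstt1 at 0.971 (0.895 to 1.05). Below 1 were Gsta4 at 0.929 (0.875 to 0.985), Mgst1 at 0.901 (0.845 to 0.961), Gstm5 at 0.89 (0.848 to 0.933) and Gstk1 at 0.889 (0.791 to 0.998). Counted at 1.5 times, 1 of the 9 members measured was higher (Gstp1), against 3.59% of 11757 genes, and none was lower, against 4.01%. Gstp1 was on the list for this ratio, so its count is read as nothing more than that. The median ratio of the 9 was 0.971 and that of all genes 1.01.

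The higher Gstp1 count was not tied to 1 group of proximal tubule cells. Its ratio ran from 2.17 (1.57 to 3.02) in cluster 8 to 4.03 (2.17 to 7.80) in cluster 15 over the 10 clusters, and no interval included 1. By segment it was 3.74 (2.78 to 5.09) in early, 3.3 (2.74 to 3.99) in middle and 3.3 (1.24 to 9.02) in late cells. By state it was 3.15 (2.69 to 3.7) in low and 3.29 (2.62 to 4.17) in high Malat1 cells. Of 3057 genes with enough UMIs in each of the 10 clusters, 2 were higher by 1.5 times in all of them, a background of 0.0654%, and Gstp1 was 1 of these 2. Gstp1 was listed for this ratio, so nothing is read from that count.

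The same direction was seen outside the proximal tubule. The Gstp1 ratio was 3.21 (1.76 to 5.99; 19 and 32 UMIs) in the thick ascending limb, 7.25 (3.17 to 19.3; 7 and 35 UMIs) in the distal class and 5.01 (2.05 to 13.4; 8 and 17 UMIs) in endothelial cells. T or NK cells had 4.96 (1.999 to 15.9; 5 and 54 UMIs), principal cells 3.75 (1.48 to 10.7; 7 and 17 UMIs) and intercalated cells 5.11 (1.49 to 27.1; 3 and 18 UMIs). In mononuclear phagocytes the ratio was 3.73 (0.795 to 35; 2 and 10 UMIs), and in B cells 1.39 (0.138 to 68.7; 1 and 4 UMIs), and both intervals included 1. Podocytes had 0 UMIs in both libraries, from 6 and 3 cells. With 2 to 8 UMIs in the vehicle library in most of these classes, the size of each ratio is loosely set, and how far they differ between classes was not tested. When the 3 cells richest in Gstp1 were dropped from each class and library, the ratio was 12.4 in the distal class, 7.80 in endothelial cells and 9.33 in T or NK cells. The vehicle counts there were 7, 8 and 5 UMIs, and dropping 3 cells takes a large part of them. The rise is therefore not read as a larger difference.

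**Figure D3:**
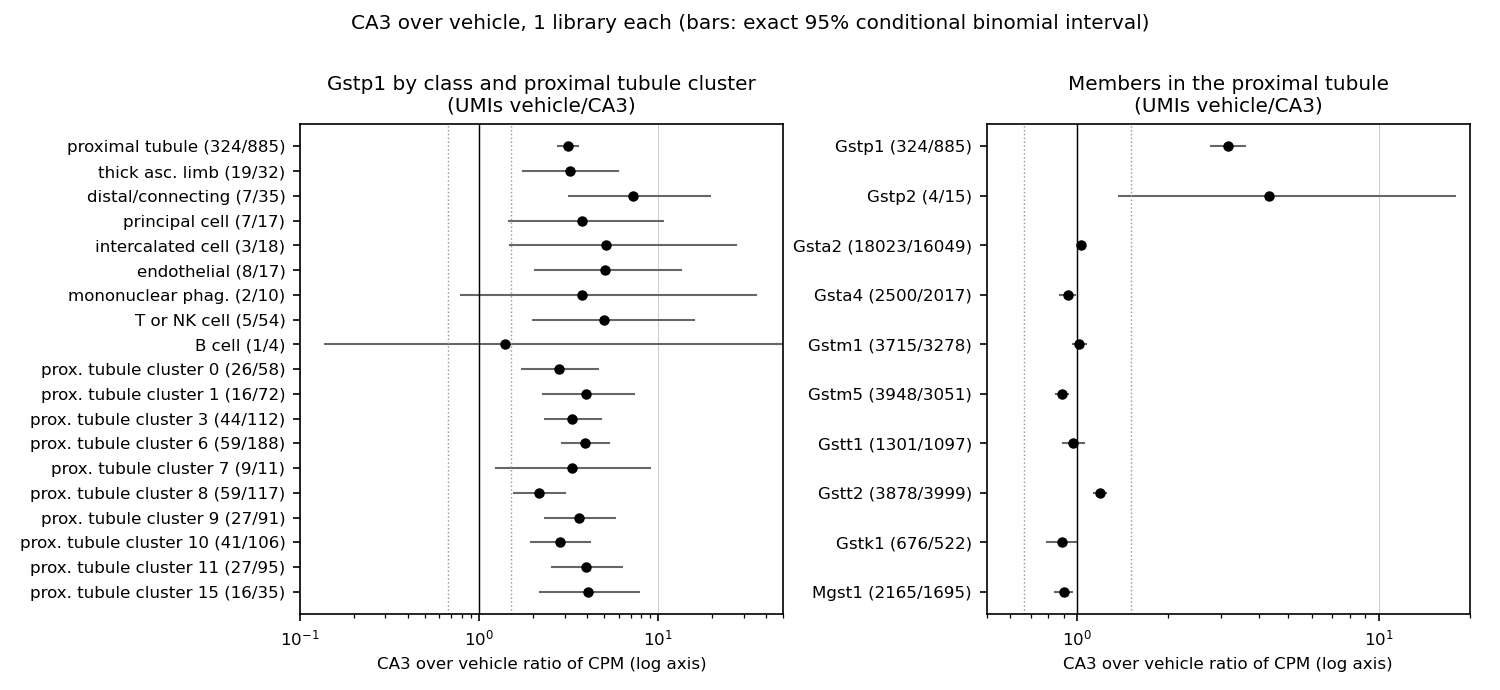
CA3 over vehicle ratio of CPM (log axis) with exact 95% intervals, for Gstp1 in 9 classes and 10 proximal tubule clusters (left) and for the 10 members in the proximal tubule (right), with UMI counts beside each label, a solid line at a ratio of 1 and dotted lines at 1.5 times in either direction. All Gstp1 points lie above 1, and in the proximal tubule the members other than Gstp1 and Gstp2 lie between 0.889 and 1.19.

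Other members differed between the libraries in the small classes, where the background is also larger. Gstp1 was listed for its CA3 over vehicle ratio, so nothing is read from its place in the counts of these classes, T or NK cells included. In the distal class 4 of 9 members were higher by 1.5 times (Gstp1, Gsta2, Gstm1 and Gstm5), against a background of 11.6%, and none was lower, against 12.7%. Gsta2 there was at 2.06 (1.6 to 2.65; 110 and 156 UMIs) and Gstm1 at 2.01 (1.26 to 3.21; 34 and 47 UMIs). Proximal tubule genes moved with them: Gsta2 went from 10.1% to 20.2% of its proximal tubule level, Gsta3 was at 2.8 (1.42 to 5.77), and the 11 proximal tubule markers, all 11 of them higher in CA3 and none at 0, summed to 2767 CPM in the vehicle and 5137 CPM in the CA3 distal class, a ratio of 1.86 (1.74 to 1.98). The median depth of distal cells was 12746 UMIs in the vehicle and 7241 in the CA3 library. The part of these markers and of depth in the distal ratios was not tested. In endothelial cells Gstp1, Gsta4, Gstt1 and Gstt2 were higher, against 13%, and Gstm1 and Gstm5 lower, against 19.1%. The endothelial intervals of Gsta4 (0.997 to 3.1), Gstt1 (0.946 to 3.8) and Gstm5 (0.301 to 1.01) included 1. Endothelial Gstm1 was at 0.553 (0.369 to 0.808; 145 and 34 UMIs). The proximal tubule markers summed to 2480 and 3846 CPM in endothelial cells, a ratio of 1.55 (1.44 to 1.67), with 9 of the 11 higher in CA3 and none at 0, and their part was not tested. In the thick ascending limb Gstp1 and Gsta4 were higher, against 9.68%, and none was lower, against 11.6%. Thick ascending limb Gsta4 was at 1.59 (1.13 to 2.24; 79 and 66 UMIs) and Gstm1 at 0.708 (0.585 to 0.852; 420 and 156 UMIs). The same markers summed to 3461 and 2601 CPM there, a ratio of 0.751 (0.706 to 0.799), with 2 of the 11 higher in CA3. Their part in the thick ascending limb ratios was not tested.

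In T or NK cells 6 members were measured, of which Gstp1 and Gstm5 were higher, against 13.7%, and none was lower, against 12%. Gstm5 there was at 2.07 (0.836 to 6.12; 6 and 27 UMIs), with an interval that included 1. In mononuclear phagocytes 3 were measured: Mgst1 was higher, against 13.3%, at 2.47 (1.39 to 4.63; 16 and 53 UMIs), and Gstm1 was lower, against 12.8%, at 0.657 (0.353 to 1.21; 25 and 22 UMIs), with an interval that included 1. Mgst1 in mononuclear phagocytes stood at 24.4% (13.9 to 39.7%) and 66.9% (49.9 to 87.9%) of its proximal tubule level, beside 6.78% and 4.53% for Gsta2 in the same cells. Of the 3548 genes measured in all 6 larger classes, 1 (0.0282%), Gm10076, was higher by 1.5 times in each, and it was no member. Gstp1 was not measured in mononuclear phagocytes at 20 UMIs and so could not be counted there.

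Gstp1 was then set beside Gstp2. Gstp2 had 0.376 CPM (0.103 to 0.964; 4 UMIs) in the vehicle library and 1.62 CPM (0.909 to 2.68; 15 UMIs) in the CA3 library in the proximal tubule, a ratio of 4.32 (1.38 to 17.9). Outside the proximal tubule it had 1 UMI in the thick ascending limb and 1 in principal cells of the vehicle library and 0 in the other classes. In T or NK cells a count of 0 allows up to 10.8 and 4.95 CPM in the vehicle and CA3 libraries. Summed, Gstp1 and Gstp2 had 328 UMIs (30.9 CPM) in the vehicle and 900 UMIs (97.5 CPM) in the CA3 proximal tubule, a ratio of 3.16 (2.78 to 3.59). Gstp1 gave 324 of the 328 and 885 of the 900 UMIs, so the ratio of the sum was set by Gstp1. A read of the shared end may come from either gene, so the Gstp2 ratio is no separate check.

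Little of the transcript ends tells these genes apart. Of the words of 31 nucleotides in the last 400 nucleotides of all Gstp1 transcripts, 458 of 536 (85.4%) were also in a Gstp2 transcript, and for the main transcript Gstp1-201 the share was 91.6%. Of the Gstp2 words, 539 of 880 (61.2%) were also in a Gstp1 transcript and 68.6% in any other gene, and 100% of the words of Gstp2-201 were in another gene. How reads that match both genes were assigned is unknown here. A read from the shared stretch, such as the last 150 coding bases shown above, does not say which gene it came from.

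The same count was made over all genes as a background. In the proximal tubule, 26.1% of the 165 genes with at least 80% shared words were past 1.5 times in either direction, against 7.24% of the 10756 genes with under 20% shared. At 200 UMIs or more the shares were 7.89% of 76 genes and 1.07% of 7494 genes. With 1209 UMIs and 85.4% of words shared, Gstp1 belongs to the group of 76 and is 1 of its 3 genes higher in CA3. Another of the 3 is Gm10076, at 2.09, with 84.2% of words shared, the gene that was higher in each of the larger classes. The 3 lower ones include the haemoglobin genes Hba-a1, at 0.22, and Hba-a2, at 0.299. The share of the 76 thus counts Gstp1 itself and is no separate background for its ratio. Of the other members, Gsta2 shared 67.5% of its words with other genes of the count tables, namely Gm10639, Gsta1 and Gm3776, and had a ratio near 1, while Gm10639 was at 1.34 (1.22 to 1.47). Gstm1 shared 25.9% with Gstm3, which had 2 UMIs in all kept cells. Gsta4, Gstm5 and Mgst1 shared none. The part of read assignment in the Gstp1 ratio was not tested.

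**Figure D4:**
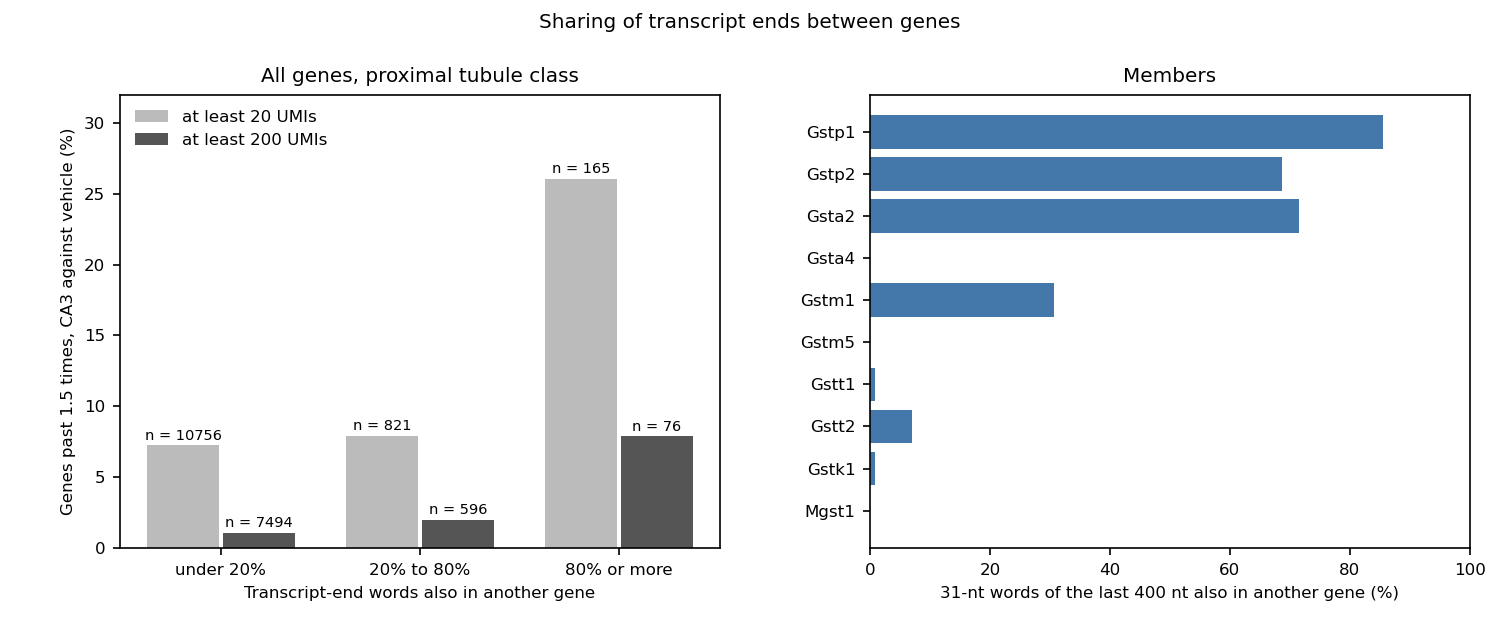
Left, share of genes past 1.5 times in either direction between CA3 and vehicle proximal tubule cells, by how much of the transcript end is also in another gene, at 2 UMI minimums; right, the share of end words of each member that is also in another gene. Of genes with at least 80% shared words 26.1% are past 1.5 times, against 7.24% of those under 20%, and Gstp1, at 85.4%, is 1 of 3 members above 50%.

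The rest of the family gives the setting. Of the 20 other glutathione transferase genes listed, 18 were in the tables and 13 were measured in the proximal tubule, and none of the 13 was past 1.5 times, with a median ratio of 1.02. Mgst3 was at 0.879 (0.833 to 0.927) and Gsta3 at 0.999 (0.945 to 1.06). Gstm2, a mu class gene beside Gstm1, was highest in principal cells, at 501 CPM (445 to 563) and 402 CPM (339 to 472). It had 184 and 211 CPM in the thick ascending limb and 94.3 and 172 CPM in intercalated cells. Endothelial cells had 87.8 and 62.1 CPM, the distal class 51.3 and 58.6 CPM and the proximal tubule 1.69 and 1.73 CPM. Gstp3, another pi class gene with no shared end words, had 68.2 CPM (41.1 to 107; 19 UMIs) in the vehicle library and 24.7 CPM (13.8 to 40.8; 15 UMIs) in the CA3 library in T or NK cells and 2 UMIs in the proximal tubule of each library. Hpgds, the haematopoietic prostaglandin D synthase, was found in mononuclear phagocytes, at 49.7 CPM (28.4 to 80.7) and 60.3 CPM (39.4 to 88.3).

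Genes that make, recycle or use glutathione were mostly level between the libraries in the proximal tubule. None of 14 genes of glutathione synthesis, recycling and breakdown was past 1.5 times, with Ggt1, the brush border enzyme that opens glutathione breakdown, at 1.04 (0.998 to 1.08; 450.0 CPM in vehicle and 468 in CA3) and Esd at 0.897 (0.872 to 0.923; 1034 CPM in vehicle and 927 in CA3). None of 9 glutathione peroxidase and glutaredoxin genes was, with Gpx3, the secreted peroxidase made by the proximal tubule, at 1.21 (1.2 to 1.22; 10531 CPM in vehicle and 12708 in CA3) and Gpx1 at 1.03 (1.01 to 1.04; 3462 CPM in vehicle and 3561 in CA3). Of 12 genes of conjugate export and mercapturate formation, 2 were lower and none higher. These were Aadat, an aminotransferase, at 0.59 (0.545 to 0.639; 171 CPM in vehicle and 101 in CA3), and Abcc3, an exporter of conjugates, at 0.266 (0.113 to 0.557; 3.67 CPM in vehicle and 0.975 in CA3). Aadat was also a leading gene of the late cluster, which held 41 vehicle and 15 CA3 cells, and its ratio was 0.9003 (0.691 to 1.17) within early, 0.733 (0.623 to 0.863) within middle and 1.05 (0.939 to 1.17) within late cells. Nat8f1 was at 0.868 (0.84 to 0.898; 756 CPM in vehicle and 657 in CA3) and Abcg2, an efflux pump, at 0.937 (0.904 to 0.971; 630.0 CPM in vehicle and 590.0 in CA3). These lists were chosen with earlier results known, and the shares set against them are those of all genes, 3.59% higher and 4.01% lower.

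Of 17 regulators and targets of Nrf2, the transcription factor that drives many conjugation genes, 1 was higher and 1 lower, with a median of 0.978. Cbr3, a carbonyl reductase, was at 1.81 (1.26 to 2.62; 4.8 CPM in vehicle and 8.67 in CA3) and Maff, a small Maf partner of Nrf2, at 0.238 (0.0808 to 0.584; 2.73 CPM in vehicle and 0.65 in CA3). Gclm, a subunit of the enzyme that limits glutathione synthesis, was at 0.921 (0.878 to 0.967; 353 CPM in vehicle and 325 in CA3) and Txn1 at 0.919 (0.892 to 0.945; 987 CPM in vehicle and 907 in CA3). Of 13 other drug conjugation genes 1 was lower, Nat2 at 0.658 (0.465 to 0.923; 9.22 CPM in vehicle and 6.07 in CA3), and none higher, while Sult1d1 was at 0.87 (0.848 to 0.892; 1288 CPM in vehicle and 1120.4 in CA3) and Ugt3a2 at 0.821 (0.786 to 0.857; 469.6 CPM in vehicle and 385 in CA3).

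For the 9 members with at least 200 UMIs, the genes with the most similar levels were sought among 9781 genes that are no glutathione transferase, by Pearson's r of log2(CPM + 1) over 12 points, the 6 larger classes in each library. The points share cells' libraries and depth, and r is given as a description. Gstt1 was closest to Uqcrc1 (0.99), Uqcr11 (0.99) and Ndufb4 (0.99), and Gstk1 to Suclg2 (0.99), Sdhc (0.99) and Abcd3 (0.99). Gsta2 was closest to Fbp1 (0.99), Hnf4a (0.98) and Scp2 (0.98), Gstt2 to Abhd14a (0.98), Spink1 (0.98) and Pipox (0.97), and Gsta4 to Abhd14b (0.97), Hadh (0.97) and Adhfe1 (0.96). Gstm5 was closest to Gpx4 (0.96), Lama1 (0.95) and Cldn12 (0.95), Gstm1 to Slc16a11 (0.95), Rer1 (0.94) and Coa3 (0.93), and Mgst1 to Fam20c (0.95), Scamp1 (0.95) and Tmem107 (0.95). For Gstp1 the nearest were Slc20a2 (0.85), Zfp874a (0.81) and Gm42418 (0.81). The 12 points hold both libraries, so the CA3 over vehicle ratio for which Gstp1 was listed is part of its profile. Its vehicle points outside the proximal tubule rest on 2 to 19 UMIs. Nothing is therefore read from its lower r.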

How the data were processed

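Whole kidney cells were profiled with 10x Chromium 3' libraries on a NextSeq 500, per the labels' protocols, and processed with Cell Ranger 3.0.1 on mm10, per the submitters' processing notes. The authors deposited whole-number UMI counts by gene and barcode, without normalization as the values show, and how they treated reads matching several genes is not stated here. A cell needed 500 detected genes or more and no more than 50% of UMIs from mitochondrial genes, which removed 200 vehicle and 230 CA3 barcodes. No doublet caller was applied and no cell was removed as a doublet, so doublets may remain. Both libraries were then clustered jointly in scanpy 1.11.5 on log values scaled to 10000 counts (2000 variable genes without glutathione transferases, 30 principal components, 15 neighbours, Leiden resolution 1), giving 20 clusters. Names rest on marker lists, while the broader classes, the segments and the Malat1 states were set after the data were seen.

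UMIs were summed per class and library with SciPy 1.17.1 intervals. A gene was measured at 20 UMIs over both libraries and counted as higher or lower at 1.5 times, and the share of all genes so counted is the background. A count of 0 allows 3 UMIs. Words of 31 nucleotides came from GENCODE vM21 transcripts, and promoters from RefSeq. The ratio step was tested on simulated data. All 10 members are named. Of other lists, the genes past 1.5 times and the 2 with the highest CPM are named, at most 6. The members and lists were chosen with earlier results of these data known. Alternatives to the filter, total, depth, clustering and minimums are given in the closing section.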

Additional observations from a re-analysis of the deposited data

Results flagged for a closer look

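Gsta2, Gstm1 and Gstt2 were at least 1.5 times higher in the CA3 library in 1 class and at least 1.5 times lower in another, with intervals apart from 1. The differences between classes were not tested, and each class is 1 library against 1. Gsta2 had a CA3 over vehicle ratio of 2.06 (1.6 to 2.65) in the distal convoluted or connecting tubule, 0.235 (0.0927 to 0.526) in intercalated cells and 0.232 (0.0824 to 0.618) in B cells. The last value rests on 12 and 8 UMIs, of which all 12 in the vehicle library were in 1 of 5 cells. Gstm1 had 2.01 (1.26 to 3.21) in the distal class and 1.91 (1.33 to 2.76) in intercalated cells, against 0.553 (0.369 to 0.808) in endothelial cells. Gstt2 had 1.92 (1.16 to 3.17) in endothelial cells and 0.505 (0.279 to 0.873) in principal cells. The endothelial, distal and collecting duct classes held between 13 and 56 cells per library, and intervals over summed UMIs do not cover the spread between cells. The summed proximal tubule markers went the same way as Gsta2, at 1.86 (1.74 to 1.98) in the distal class, 0.221 (0.183 to 0.265) in intercalated cells and 0.122 (0.0928 to 0.159) in B cells, and were at 1.55 (1.44 to 1.67) in endothelial and 0.672 (0.607 to 0.743) in principal cells. The markers thus went the same way as Gstt2 in endothelial and principal cells. For Gstm1 they did so in the distal class but went the other way in intercalated and endothelial cells. The part of the markers in these ratios was not tested.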

How the results depend on the processing

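No paired analysis was possible because each group had 1 library. The Gstp1 ratio in the proximal tubule stayed between 2.99 and 3.37 over 11 alternatives (stricter cell filter, other totals, thinning, other clusterings, fewer cells or clusters), 2 of them, the Malat1 states, added after seeing the data. The 8 members other than Gstp1 and Gstp2 stayed there between 0.843 and 1.23. Counting from 1 UMI made 2 members higher in CA3, Gstp1 and Gstp2, in place of 1. Members highest in the proximal tubule numbered 7 in place of 4 without the 3 cells with most UMIs of the gene. Dropping 3 cells takes more from small groups than from large ones, which limits each comparison of groups made that way. At resolution 0.5 thick ascending limb, endothelial and distal cells were in merged clusters. Each merged cluster was used as a class only in the count of members highest in the proximal tubule. The Gstp1 ratios of those 3 classes were therefore not computed at that resolution. Late over early, 4 members in place of 2 were lower at resolution 0.5, with glutathione transferases kept for clustering and without the 3 top cells, and 0 where middle over early within each Malat1 state was used instead, an addition after seeing the data. Gstp1 in late over early cells turned to 0.539 at resolution 0.5, 0.701 with glutathione transferases kept and 0.94 without the 3 top cells in the vehicle library, and to 0.852 without the 3 top cells in the CA3 library. Middle over early, 2 members in place of 4 were higher in thinned cells, where fewer reached 20 UMIs. Low over high Malat1, 3 in place of 6 were higher with all genes in the total. With the last 800 in place of 400 nucleotides, shared words fell to 58.7% for Gstp1 and 56.9% for Gstp2. The cause of the other moves was not tested. Depth limits Gstp2, the late segment and all classes outside the proximal tubule.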
